A study of Mus musculus with 5 samples.

Results

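Semaphorins, plexins, ephrins and Eph receptors were described in RNA of sorted cells from the junction between renal pelvis and kidney in the mouse. The members are all 50 rows of the deposited table of 18044 genes whose symbol belongs to semaphorin classes 3 to 7, to plexins A to D, to ephrins A or B or to Eph receptors A or B. They comprise 20 semaphorins, 9 plexins, 8 ephrins, 12 Eph receptors and 1 antisense RNA, Plxna4os1, whose symbol the pattern also takes in. All 50 had a mean normalized count of at least 5 and were tested. Normalized counts are reads divided by a size factor for each library.

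The cells came from C57BL/6 embryos at E18.5, late in gestation. Junctions of all embryos were pooled, digested with collagenase and sorted on an antibody to the channel HCN3. All groups share this strain, stage, tissue and handling, and differ in the HCN3 gate. The series holds 5 libraries, 2 labelled HCN3-positive and 3 labelled HCN3-negative, written here as positive 1, positive 2, negative 1, negative 2 and negative 3, by label. Nothing says that they came from separate pools, so p-values cover only the spread of these libraries, and that spread may be technical.

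The deposited table also holds a comparison by the authors, whose fold column divides the libraries differently from the titles. In 100% of its 18047 rows the fold equals the mean of positive 2, negative 1 and negative 3 over the mean of positive 1 and negative 2, within a tolerance of 0.01. The table does not say which side is HCN3-positive. Positive 1 and negative 2 are called the first set here, and positive 2, negative 1 and negative 3 the second set. Both comparisons use the same 5 libraries and are not independent. Reads in genes numbered 24588864 to 39034478 per library. Hcn3 itself had 0 reads in positive 1 and a normalized count of 44.5 in positive 2, against 32.2 to 103 in the libraries labelled negative, so its transcript did not follow the labels.

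The sets differed in markers of several cell types, and these values stand beside every result on the sets. All 14 measured genes of a macrophage list were called higher in the first set. Their summed normalized count was 537266 and 616094 there and 1345 to 2555 in the second set, and none was at 0 in any library. All 10 endothelial genes were called higher in the second set, at a sum of 34720 to 132594 against 8155 and 9559. So were 9 of 10 smooth muscle genes (24918 to 134383 against 6546 and 4545) and all 10 stromal genes (98756 to 219954 against 11518 and 11315). Of 8 podocyte genes, 6 were called higher in the second set, at 43096 to 349908 against 15362 and 10033, with the highest sum in negative 3. Of the other lists, for duct epithelium, proximal tubule, nephron progenitors, red cells, neurons and glia, and pacemaker genes, 3 genes were called, all higher in the second set. The smooth muscle genes Acta2 and Myh11 were at 45109 and 18441 in positive 2 but at 2568 and 1441 in positive 1. The part of these cell types in the differences between the sets was not tested. In bulk samples, fewer cells of a type and less RNA per cell cannot be told apart.

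**Figure D1:**
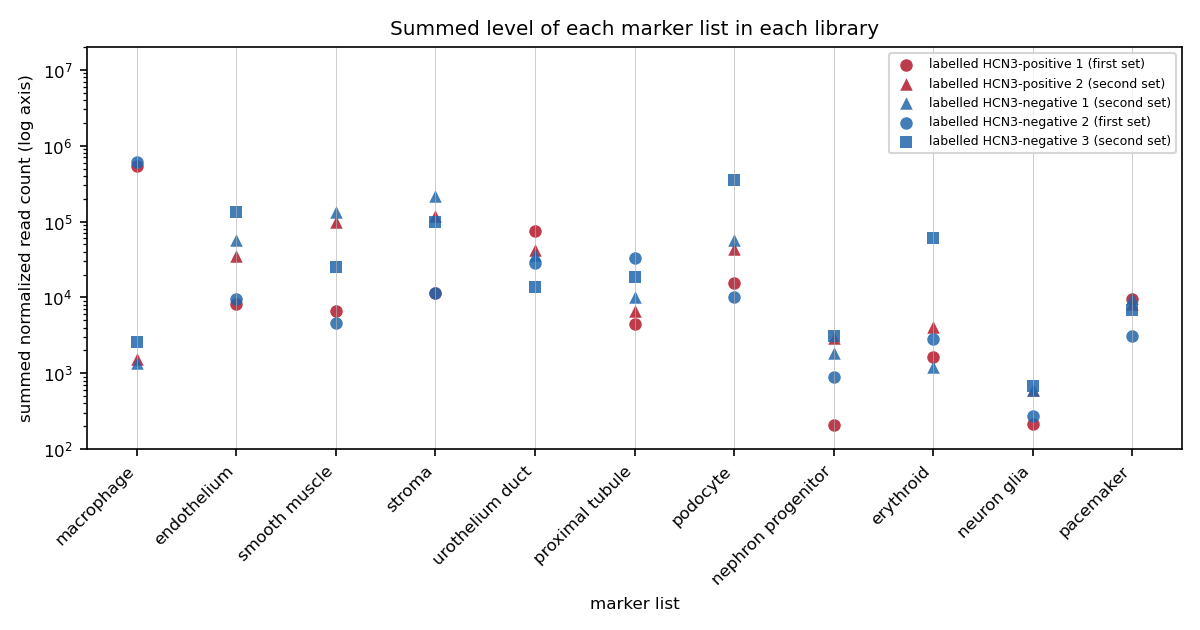
Summed normalized read count (log vertical axis) of each of 11 marker lists (horizontal axis), where a point is 1 library, red if labelled HCN3-positive, blue if labelled HCN3-negative, and a circle if in the first set. The macrophage points of the first set (537266 and 616094) stand far above the rest (1345 to 2555), while the endothelial, smooth muscle and stromal points of the first set stand below all others.

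Semaphorins are guidance signals that bind plexins, whose cytoplasmic part acts on small GTPases and loosens the grip of a cell on its surroundings. Class 3 semaphorins are secreted and mostly need a neuropilin as co-receptor, and the other vertebrate classes are tied to the cell surface. Ephrins are tethered ligands of the Eph receptor tyrosine kinases, the A type by a lipid anchor and the B type by a membrane span, so that the signal passes between touching cells and in both directions. In the kidney these families are known from branching of the ureteric bud, from the vessels and from the podocytes of the glomerulus.

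By label, no member separated the groups by the test. None of the 50 passed limma at an adjusted p of 0.05, where 0.0% of all 16579 genes tested passed, and 0 had an unadjusted p under 0.05, as 0.947% of all genes had. The count tests called 0 members as well (edgeR 0 and DESeq2 0), where edgeR called 0 and DESeq2 10 of all 16579 genes. In DESeq2, 2 members had an unadjusted p under 0.05, as had 464 of those genes. The median log2 difference, labelled positive minus labelled negative, was -0.17 over the members and -0.03 over all genes tested. Of the members, 22 lay above 0 and 28 below.

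For 3 members the labelled groups did not overlap. Efna5, a lipid-anchored ephrin, had normalized counts of 507 and 648 in positive 1 and 2 and of 419, 183 and 393 in negative 1, 2 and 3. Ephb2, a receptor of B-type ephrins, had 321 and 603 in the libraries with the positive label against 227, 162 and 233. Both were thus higher in each library labelled positive, as were 5.34% of all genes tested. Sema6b, a transmembrane semaphorin, had 155 and 211 under the positive label against 357, 289 and 752, where 5.44% of all genes were lower without overlap. The log2 differences were 0.88 (SE 0.54), 1.10 (SE 0.53) and -1.23 (SE 0.60) for these 3 genes in that order. The limma adjusted p was 0.99995 for each, so none passed after adjustment over all genes tested. Their unadjusted limma p-values were 0.162, 0.0906 and 0.0924 in the same order.

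Between the sets, semaphorins and plexins differed in direction by class, and all ephrin and Eph classes were higher in the second set. Semaphorin class 4 and the B and C plexins had the higher summed level per kilobase of exon in the first set, and all other classes in the second, with no overlap between the sets. Class 4 semaphorins summed to 2288 ± 19.1 (SD, n = 2) per kilobase in the first set and 959 ± 242 (SD, n = 3) in the second. The B plexins summed to 2767 ± 185 (SD, n = 2) per kilobase in the first set and 1691 ± 173 (SD, n = 3) in the second, and the only C plexin, Plxnc1, had 165 ± 44.5 (SD, n = 2) per kilobase in the first set and 40.0 ± 5.20 (SD, n = 3) in the second. Class 3 semaphorins, in contrast, summed to 1052 ± 102 (SD, n = 2) per kilobase in the first set and 2075 ± 319 (SD, n = 3) in the second. A few members carried the sums that were higher in the first set. Without Sema4a and Sema4d, class 4 summed to 358 and 668 per kilobase in the first set and 476, 474 and 971 in the second, with overlap. Plxnb2 made up most of the B plexin sum in each library. These sums were not tested.

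As a share of the semaphorin level per kilobase, class 4 made up 61.0% and 63.0% in positive 1 and negative 2, and 26.0%, 21.2% and 24.8% in positive 2, negative 1 and negative 3. Class 3 made up 30.1% and 26.8% in the first set and 54.3%, 54.3% and 48.8% in the second. These shares do not depend on the size factors. Within the plexins, the B type made up 84.7% and 84.9% of the first set against 69.9%, 60.9% and 57.4%. The split of the Eph receptors into A and B types overlapped between the sets, with the B type at 81.6% and 66.6% against 70.6%, 66.9% and 79.9%. So did that of the ephrins, with the B type at 42.8% and 30.8% against 39.9%, 37.0% and 49.8%.

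**Figure D2:**
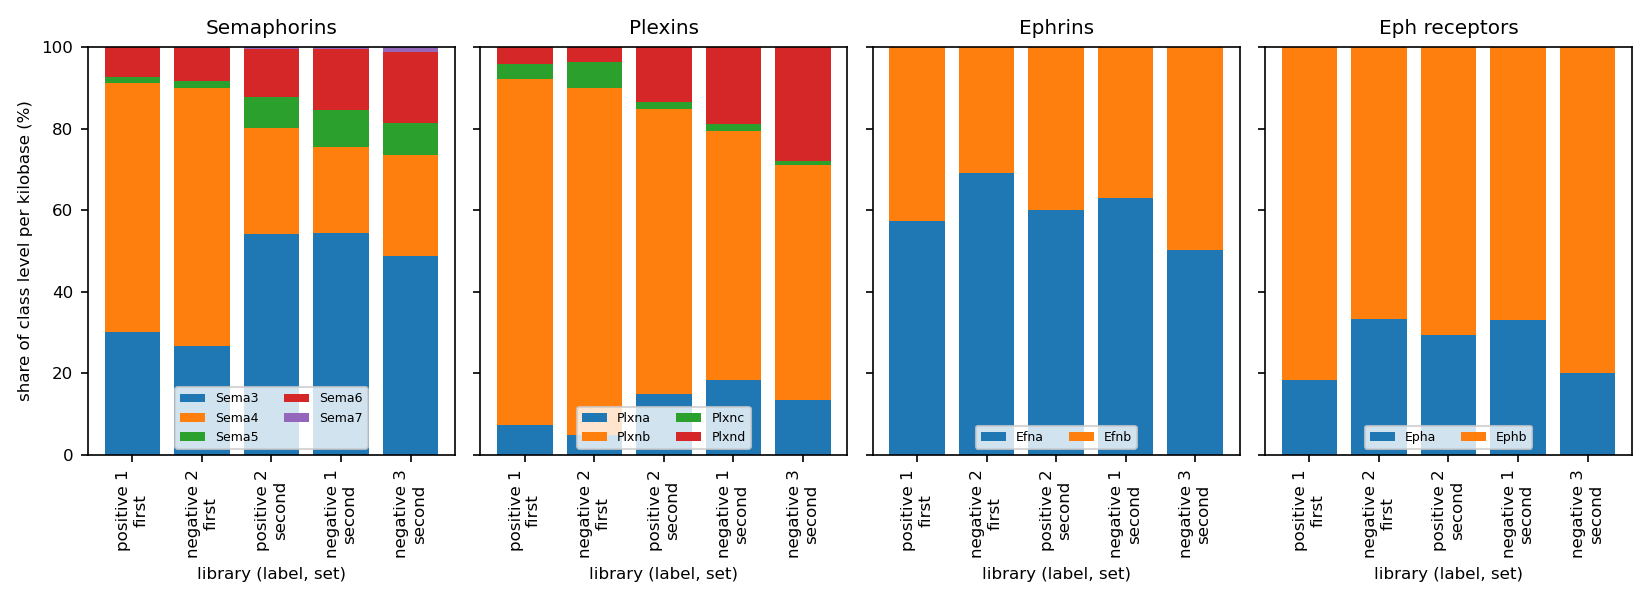
Share of the summed level per kilobase of exon (vertical axis, percent) taken by each class of semaphorins, plexins, ephrins and Eph receptors (panels) in each library (horizontal axis, first set on the left). Sema4 took 61.0% and 63.0% of the semaphorin level in the first set and 21.2% to 26.0% in the second.

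Summed normalized counts of the Eph receptors were 5486 and 5438 in the first set and 16067, 15432 and 19309 in the second. Ephrins summed to 6027 and 3293 against 11127, 9774 and 21105. Semaphorins summed to 25118 and 24503 against 24233, 27853 and 34116 and plexins to 27668 and 24439 against 19073, 21900 and 27144. The ephrin and Eph sums did not overlap between the sets, while the plexin and semaphorin sums did.

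Of the 50 members, limma called 7 higher in the first set and 18 higher in the second, where it called 10.6% and 9.88% of all 16579 genes tested. An unadjusted p under 0.05 was reached by 33 of the 50 members and by 5532 of all 16579 genes tested (33.4%). The median log2 difference, first minus second set, was -1.30 over the members and -0.07 over all genes. In 8 members the first set lay wholly above the second, and in 27 wholly below, against 23.5% and 26.1% of all genes tested. At an adjusted p of 0.05 the authors' deposited table has 6 members toward the first set and 12 toward the second, where 8.1% and 6.09% of its genes are. The limma and deposited calls shared 6 and 11 members. The limma calls of Plxnb2, Sema3g, Plxnd1, Efna1, Efnb1, Epha2, Epha3 and Ephb1 were not among them. Their adjusted p in the authors' deposited table ran from 0.114 to 0.269.

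A total of 6 members were called in limma and under all 14 alternatives, including each library left out in turn: Sema3a, Sema4a, Sema4d, Sema5a, Sema6a and Plxnc1. Of the 25 calls, 14 remained without positive 2, 10 without negative 1 and 21 without negative 3. Over all genes the share called also fell, from 20.5% to 11.5% without positive 2, 10.4% without negative 1 and 17.0% without negative 3. Calls were also lost without positive 1 or without negative 2, and fewer of all genes passed there too. Leaving out a library of the first set leaves 1 library there, which is then assumed to vary like the others. In the gene accounts below, a number in brackets after a left-out library is the limma adjusted p without it, with the log2 difference where that moved by over 1.5 times.

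**Figure D3:**
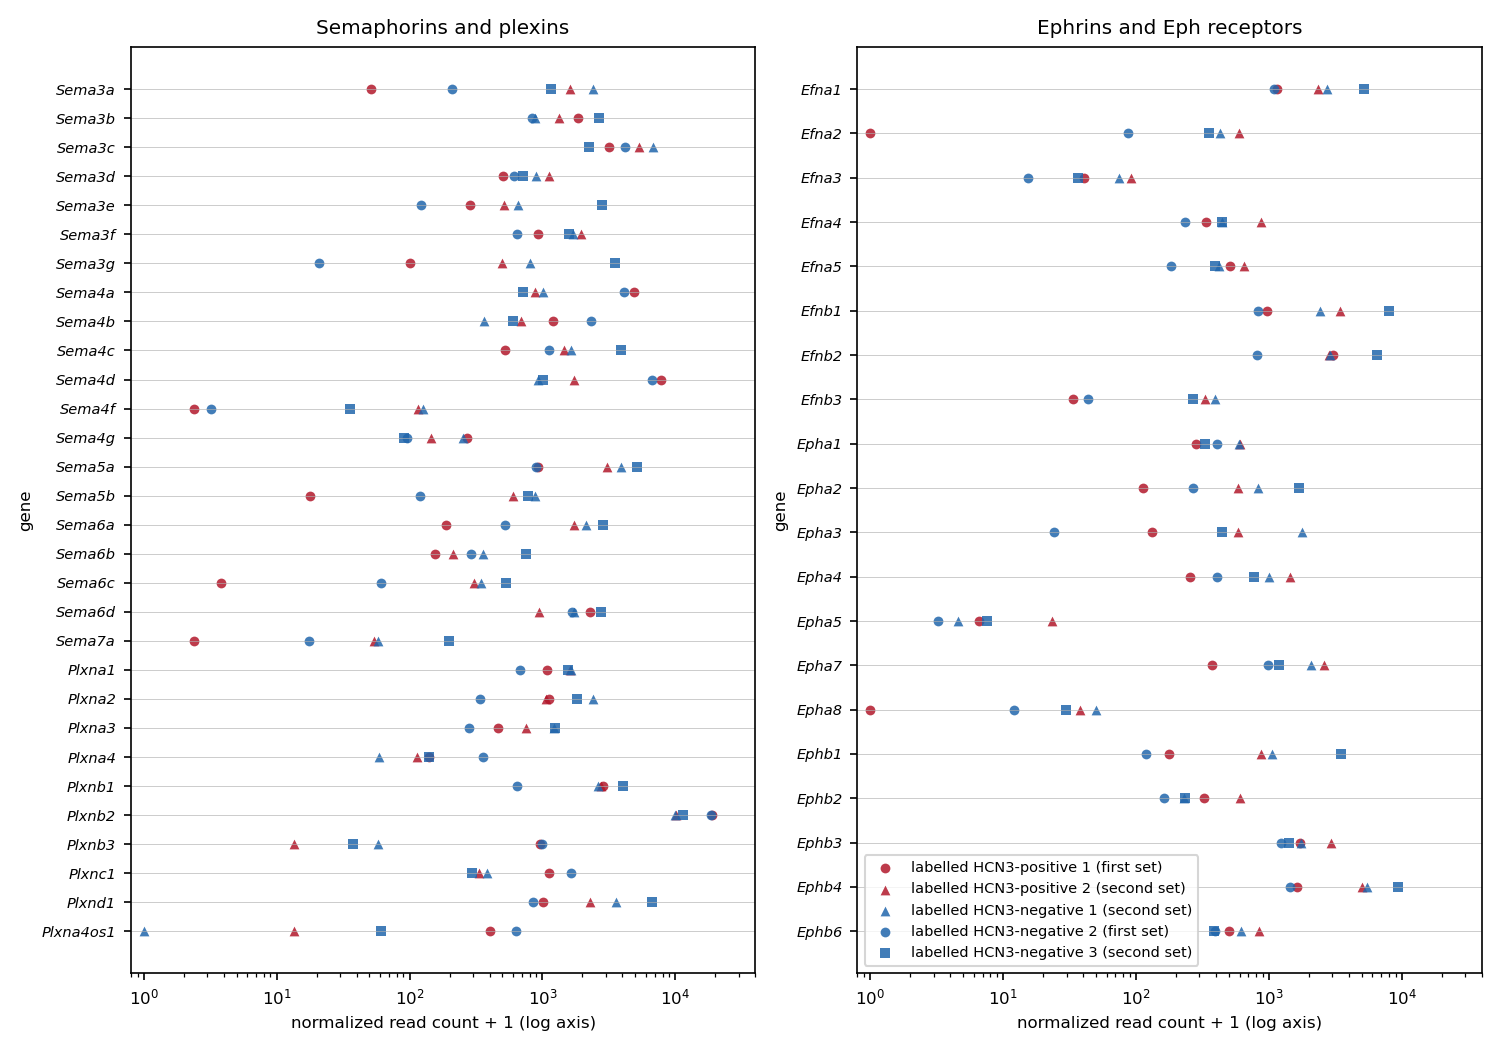
Normalized read count plus 1 (log horizontal axis) of every member (vertical axis), where a point is 1 library, red if labelled HCN3-positive, blue if labelled HCN3-negative, and a circle if in the first set. Sema4a, Sema4d, Plxnb2, Plxnb3 and Plxnc1 have both circles to the right of the other points, and Sema3a, Sema5a and Ephb4 have both to the left.

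Class 4 semaphorins held 3 of the 7 calls higher in the first set, from 6 genes, where 10.6% of all genes were called in that direction. Sema4d (chromosome 13, 51685529 to 51793747, minus strand, mm10), a surface semaphorin known on lymphocytes and myeloid cells, had normalized counts of 7791 and 6678 in positive 1 and negative 2. It had 1735, 920.4 and 1008 in positive 2, negative 1 and negative 3. Its level was 6.15-fold higher in the first set (log2 2.62, SE 0.31, limma adjusted p = 0.00214). Both libraries of the first set lay well above all of the second.

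Sema4a (chromosome 3, 88435959 to 88461182, minus strand), a membrane semaphorin known from immune cells, had 4876 and 4131 in the first set and 876, 1002 and 716 in the second. The difference was 5.23-fold (log2 2.39, SE 0.24, limma adjusted p = 0.00125), with the smallest limma adjusted p among the members. Sema4b had 1207 and 2337 against 691, 364 and 600.0 (log2 1.66, SE 0.42, limma adjusted p = 0.0328). The Sema4b sets did not overlap, but its call was lost with any of the 5 libraries left out, without positive 1 (0.0692), positive 2 (0.0649), negative 1 (0.0973), negative 2 (0.162) or negative 3 (0.0618).

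The other class 4 genes did not share this direction by the test. Sema4f had 1 read in positive 1 and 2 reads in negative 2, and normalized counts of 116, 126 and 34.4 in the second set. The ratio of means, second over first, was 50.7, with an exact Poisson 95% interval of 17.3 to 245.6 for the 3 reads of the first set, which covers counting error only. In limma it passed (log2 -4.85, SE 0.97, limma adjusted p = 0.0148), but not without positive 1 (0.0752), positive 2 (0.0804) or negative 1 (0.0625), and the log2 difference was -5.45 without negative 3. Among the other settings, it also changed with a pseudocount of 5 (log2 -3.65), edgeR (log2 -5.54), DESeq2 (log2 -5.64) and limma-voom (adjusted p 0.0930). Sema4c had 519 and 1112 against 1449, 1639 and 3892 (limma adjusted p = 0.0919), and Sema4g had 268 and 95.4 against 145, 252 and 90.2, with overlapping sets.

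B plexins bind class 4 semaphorins. Plxnb2 (chromosome 15, 89155549 to 89180788, minus strand), a widely expressed receptor of that class, had the highest level per kilobase of all plexins, with 44.6% to 77.8% of the plexin level per library. Its normalized counts were 18949 and 18657 in the first set and 10186, 9974 and 11333 in the second. The difference was 1.79-fold (log2 0.84, SE 0.16, limma adjusted p = 0.0117), and the spread within each set was small beside it. It did not pass without positive 1 (0.0844), negative 1 (0.0624) or negative 2 (0.0544). In the authors' deposited table its adjusted p was 0.114.

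Plxnb3 (chromosome X, 73757090 to 73772514, plus strand), a receptor of Sema5a, had 951 and 993 in the first set and 12.6, 57.0 and 36.3 in the second, with both libraries of the first set far above the others. It was 31.5-fold higher there (log2 4.98, SE 0.74, limma adjusted p = 0.00519). The call was lost without positive 1 (0.0624), and the log2 difference was 4.39 without positive 2. Plxnc1 (chromosome 10, 94790866 to 94944835, minus strand), the receptor of Sema7a, had 1116 and 1641 against 329, 379.6 and 293, and was 4.07-fold higher in the first set (log2 2.02, SE 0.33, limma adjusted p = 0.00707).

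Plxnb1, the receptor known for Sema4d, did not join them. It had 2847 in positive 1 but 641 in negative 2, against 2745, 2637 and 4003 in the second set, so positive 1 lay among the second set and negative 2 below it. Its limma adjusted p was 0.211.

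Promoters of genes called higher in the first set are shown because these members were called in the same direction as the macrophage list. RefSeq promoters (GRCm38.p6, which is mm10), 250 bases before to 50 after a start, were matched for 43 of the 50 members, among them 6 of the 7 called higher in the first set. The capitals mark GAGGAA or its reverse complement TTCCTC, the core letters of sites for PU.1, an ETS factor of myeloid cells. Sequences run 5′ to 3′ along the strand of the gene. Sema4a, Sema4b and Plxnb2 have other starts in RefSeq, of which the one nearest the gene model is shown. For every member only that nearest start was searched. The window of Plxnb2 holds no such letters, and neither does that of Sema4d, which is not printed because it lies 37064 bases from the start of the gene model. Sema3g and Sema5a, called higher in the second set, are printed for comparison, with and without the letters.
Sema4a, chr3:88461133-88461432, minus strand: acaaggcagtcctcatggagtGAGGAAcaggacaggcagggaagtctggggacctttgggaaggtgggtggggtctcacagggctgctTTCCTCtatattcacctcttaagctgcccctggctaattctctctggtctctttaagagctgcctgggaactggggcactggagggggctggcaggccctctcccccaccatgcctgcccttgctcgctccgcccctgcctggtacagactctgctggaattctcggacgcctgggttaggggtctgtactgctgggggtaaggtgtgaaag
Sema4b, chr7:80186620-80186919, plus strand: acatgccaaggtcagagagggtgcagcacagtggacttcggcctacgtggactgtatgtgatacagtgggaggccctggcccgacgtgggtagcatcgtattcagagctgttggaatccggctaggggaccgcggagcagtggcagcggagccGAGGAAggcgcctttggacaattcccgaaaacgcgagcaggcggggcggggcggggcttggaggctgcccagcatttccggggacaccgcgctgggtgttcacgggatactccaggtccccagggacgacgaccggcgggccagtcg
Plxnc1, chr10:94944796-94945095, minus strand: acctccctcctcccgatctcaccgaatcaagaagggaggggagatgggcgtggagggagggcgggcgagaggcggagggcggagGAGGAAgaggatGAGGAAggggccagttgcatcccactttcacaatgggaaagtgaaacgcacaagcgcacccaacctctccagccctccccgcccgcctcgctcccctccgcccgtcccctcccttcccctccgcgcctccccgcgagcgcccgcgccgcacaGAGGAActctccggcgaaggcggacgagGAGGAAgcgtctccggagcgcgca
Plxnb3, chrX:73756853-73757152, plus strand: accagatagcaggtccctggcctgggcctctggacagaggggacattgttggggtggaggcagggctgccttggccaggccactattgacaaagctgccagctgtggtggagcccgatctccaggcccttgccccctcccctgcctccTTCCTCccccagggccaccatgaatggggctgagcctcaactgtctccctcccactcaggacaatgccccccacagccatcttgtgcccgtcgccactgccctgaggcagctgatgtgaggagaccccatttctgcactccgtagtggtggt
Plxnb2, chr15:89180739-89181038, minus strand: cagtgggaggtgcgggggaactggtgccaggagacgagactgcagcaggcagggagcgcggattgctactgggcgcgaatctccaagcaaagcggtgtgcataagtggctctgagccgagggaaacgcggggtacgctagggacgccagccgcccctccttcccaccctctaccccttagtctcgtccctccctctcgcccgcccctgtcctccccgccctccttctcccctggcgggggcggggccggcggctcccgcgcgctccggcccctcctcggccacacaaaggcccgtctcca
Sema3g, chr14:31217623-31217922, plus strand: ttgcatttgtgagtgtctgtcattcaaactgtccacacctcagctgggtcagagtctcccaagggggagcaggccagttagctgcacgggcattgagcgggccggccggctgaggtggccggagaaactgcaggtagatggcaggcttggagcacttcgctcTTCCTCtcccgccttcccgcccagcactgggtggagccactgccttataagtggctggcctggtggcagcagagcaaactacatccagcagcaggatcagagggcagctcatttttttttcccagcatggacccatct
Sema5a, chr15:32244563-32244862, plus strand: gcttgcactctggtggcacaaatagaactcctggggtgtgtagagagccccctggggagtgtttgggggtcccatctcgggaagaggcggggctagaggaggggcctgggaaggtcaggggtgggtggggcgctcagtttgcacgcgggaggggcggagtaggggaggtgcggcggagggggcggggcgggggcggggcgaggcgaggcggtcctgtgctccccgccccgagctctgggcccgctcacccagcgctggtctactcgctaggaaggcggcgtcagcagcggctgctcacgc

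GAGGAA on either strand stood in 4 of the 6 matched promoters of members called higher in the first set, namely those of Sema4a, Sema4b, Plxnc1 and Plxnb3. It stood in 3 of 15 of those called higher in the second set and in 3 of 22 of those not called. Of all 32851 promoters of this length, 28.3% hold it. These counts include windows far from the start of the gene model for Sema4d and for Sema3a (271370 bases away). Within 1000 bases of that start it stood in 4 of 5, 3 of 14 and 3 of 21. The window of Plxnc1 holds it in 4 places, that of Sema4a in 2 and those of Sema4b and Plxnb3 in 1 each. The GC box GGGCGG, on either strand, stood in 32 of the 43 matched promoters (4 of 6, 9 of 15 and 19 of 22 in the same order) and in 35.7% of all promoters. A match describes letters and is no evidence of binding.

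The antisense RNA Plxna4os1 had the largest fitted log2 difference toward the first set among the members. It lies on chromosome 6 at 32511073 to 32515576 on the plus strand, inside Plxna4 on the minus strand (32144268 to 32588192), and shares no exon bases with it. Its normalized counts were 400.3 and 630.4 in the first set, 12.6 and 59.5 in positive 2 and negative 3, and 0 in negative 1, where 3 reads would have given 2.67. It passed narrowly (log2 5.75, SE 1.64, limma adjusted p = 0.0498). That call was lost without positive 1 (0.210), positive 2 (0.122), negative 1 (0.0566, log2 4.13) or negative 2 (0.200), and the log2 difference was 7.09 without negative 3. Among the other settings, it also changed with a pseudocount of 0.5 (limma adjusted p 0.0695), a pseudocount of 5 (log2 4.83), edgeR (adjusted p 0.0861, log2 4.46) and DESeq2 (log2 4.42). Plxna4 itself had 139.6 and 358 against 113, 57.9 and 139 (limma adjusted p = 0.279). No source says that the libraries keep strand, so the 2 strands of this locus cannot be told apart.

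**Figure D4:**
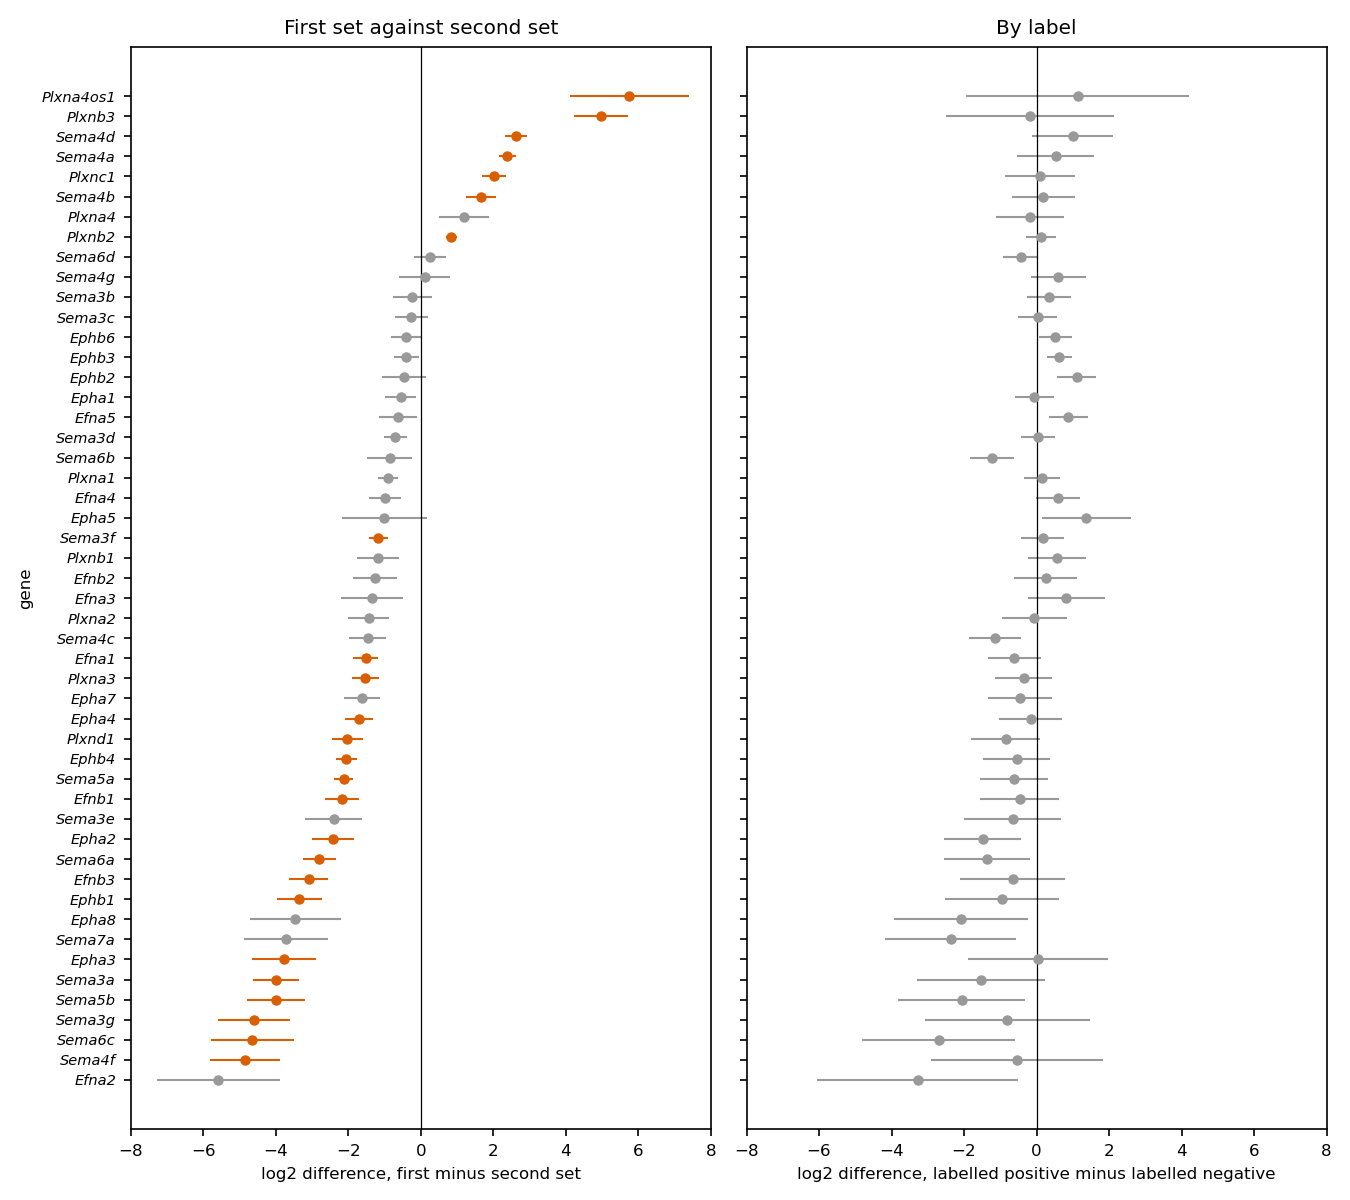
Log2 difference of every member (vertical axis, ordered by the left panel) between the first and second set (left) and between the labels (right), on the log2(normalized count + 1) scale; bars are 1 SE and orange marks a limma adjusted p under 0.05. In the left panel 7 members are orange to the right of 0 and 18 to the left, and in the right panel none is orange.

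Secreted class 3 semaphorins were higher in the second set where they passed. Sema3a (chromosome 5, 13125414 to 13602565, plus strand), a repellent for axons and vessels that acts through neuropilin 1, had 50.7 and 208 in the first set and 1620.1, 2419.9 and 1162 in the second. It was 15.968-fold higher in the second set (log2 -3.997, SE 0.63, limma adjusted p = 0.00637). The log2 difference was -2.99 without positive 1 and -5.00 without negative 2, and the call held in both. Sema3f, which signals through neuropilin 2, had 928 and 640.4 against 1947, 1703 and 1577 (log2 -1.17, SE 0.26, limma adjusted p = 0.0221), and did not pass without positive 2 (0.0898), negative 1 (0.0822) or negative 2 (0.0781).

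Sema3g, a class 3 semaphorin known from endothelium and podocytes, had 100.1 and 19.977 in the first set and 493, 811 and 3522 in the second, with the highest value in negative 3. That library also had the highest sums of the endothelial, podocyte, nephron progenitor, red cell, and neuron and glia lists, and a link was not tested. Sema3g passed (log2 -4.61, SE 0.99, limma adjusted p = 0.0193), and the log2 difference was -5.20 without positive 2 and -3.78 without negative 3 with the call kept. Its call was lost without positive 1 (0.0643, log2 -5.74), negative 1 (0.0709) or negative 2 (0.121, log2 -3.47), and in limma-voom (adjusted p 0.175). In the authors' deposited table its adjusted p was 0.269. Sema3e, the ligand of Plxnd1, was likewise highest in negative 3, with 285 and 121 against 517, 654 and 2820.4, but did not pass (limma adjusted p = 0.0748).

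The remaining class 3 genes did not pass. Sema3c, a guidance signal of heart and vessel development, had the highest mean level per kilobase of the semaphorins over the 5 libraries, at 3148 and 4149 in the first set and 5289, 6835 and 2249 in the second. Per kilobase it led the semaphorins in positive 2 and negative 1, while Sema4d led in positive 1 and negative 2 and Sema4c in negative 3. Its sets overlapped, with the lowest value in negative 3. Sema3b had 1862 and 827 against 1330.1, 873 and 2683 and Sema3d had 500.4 and 605 against 1109.7, 899 and 714, at a limma adjusted p of 0.806 and 0.169.

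Of the 6 membrane semaphorins of classes 5 and 6, 4 were called higher in the second set, against 9.88% of all genes. Sema5a (chromosome 15, 32244810 to 32696341, plus strand) and Sema5b carry thrombospondin repeats, which mark class 5. Sema5a had 928 and 889 in the first set and 3074, 3908 and 5165 in the second, 4.36-fold higher there (log2 -2.12, SE 0.26, limma adjusted p = 0.00252). Sema5b had 16.9 and 119 against 600.1, 870.5 and 782 (log2 -4.004, SE 0.80, limma adjusted p = 0.0150). This call was lost without positive 2 (0.0580) or negative 1 (0.0772), and the log2 difference was -2.63 without positive 1 and -5.37 without negative 2, or -3.41 in edgeR.

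Sema6a, a ligand of A plexins, had 187 and 524 in the first set and 1727, 2108 and 2849 in the second. It was 6.94-fold higher in the second set (log2 -2.79, SE 0.47, limma adjusted p = 0.00773), and the log2 difference was -2.06 without positive 1 and -3.53 without negative 2. Sema6c had 2.82 in positive 1, from 2 reads, and 59.9 in negative 2, against 306, 343 and 527 (log2 -4.65, SE 1.15, limma adjusted p = 0.0311). It did not pass without positive 1 (0.0598, log2 -2.65), positive 2 (0.0986), negative 1 (0.109) or negative 3 (0.0926), and the log2 difference was -6.65 without negative 2. Among the other settings, it also changed with edgeR (adjusted p 0.0835, log2 -3.57) and DESeq2 (log2 -3.63). Sema6d, at 2292 and 1681 against 946, 1712 and 2774, did not pass, and neither did Sema6b (limma adjusted p = 0.398). Sema7a, the lipid-anchored ligand of Plxnc1, had 1.41 and 16.6 in the first set and 52.7, 57.0 and 198 in the second (limma adjusted p = 0.0666).

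The 4 A plexins and 1 D plexin are the receptors of most class 3 and class 6 semaphorins. Among them 2 were called higher in the second set, against 9.88% of all genes. Plxnd1, the endothelial receptor of Sema3e, had 1011 and 855 in the first set and 2264, 3560.3 and 6715 in the second. It was 4.07-fold higher in the second set (log2 -2.02, SE 0.43, limma adjusted p = 0.0191). Without single libraries it did not pass in 3 cases, without positive 1 (0.126), negative 1 (0.0755) or negative 2 (0.119). Plxna3, which pairs with neuropilins, had 464 and 279.7 against 745, 1213 and 1245 (log2 -1.53, SE 0.38, limma adjusted p = 0.0326). This call was lost without positive 1 (0.0737), negative 1 (0.128), negative 2 (0.131) or negative 3 (0.0903), and in limma-voom (adjusted p 0.0575). Plxna1 had 1078 and 674 against 1610.5, 1632 and 1552 (limma adjusted p = 0.0591), and Plxna2 overlapped, at 1111 and 339.6 against 1068, 2388 and 1829.

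Known ligand and receptor pairs did not follow a single direction. Plxnb3 and Plxnc1 were called higher in the first set, while the ligand of the former, Sema5a, was called higher in the second, and that of the latter, Sema7a, was not called. Sema4a, Sema4d and the class 4 receptor Plxnb2 were all called higher in the first set. Plxnd1 was called higher in the second set. Its ligand Sema3e was not called, but its fitted difference had the same direction (log2 -2.40, SE 0.78). These pairs are background knowledge, and their pairing was not tested.

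All 12 Eph receptors had a fitted difference below 0, as had 8875 of all 16579 genes tested. Of the 12, 5 were called higher in the second set, where 9.88% of all genes were, and 0 in the first. Ephb4 (chromosome 5, 137350109 to 137378669, plus strand), the receptor of ephrin-B2 known from veins, had the highest level per kilobase of the Eph receptors, with 32.7% to 56.6% of the class. Its normalized counts were 1634 and 1433 in the first set and 4995, 5480.3 and 9362 in the second, 4.15-fold higher there (log2 -2.05, SE 0.30, limma adjusted p = 0.00450). It did not pass without positive 1 (0.0581). The highest value was in negative 3, which also had the highest sums of the endothelial, podocyte, nephron progenitor, red cell, and neuron and glia lists.

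Ephb1 had 175 and 118 in the first set and 873, 1045 and 3493 in the second (log2 -3.35, SE 0.62, limma adjusted p = 0.0114), again with its highest value in negative 3. The log2 difference was -2.73 without negative 3, with the call kept, and the call was lost without positive 1 (0.0873) or negative 2 (0.0864), and in limma-voom (adjusted p 0.0929). Ephb3, second in mean level per kilobase though below Ephb1 and Epha2 in negative 3, did not pass, at 1709.8 and 1239 against 2906, 1747 and 1402, with overlapping sets. Ephb2 did not pass either, at 321 and 162 against 603, 227 and 233. Ephb6, a receptor without kinase activity, had 499 and 391 against 837, 614 and 386 (limma adjusted p = 0.559).

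Among the A-type receptors, Epha4, which binds ephrins of both types, had 252 and 402 in the first set and 1444, 1001 and 768 in the second (log2 -1.70, SE 0.39, limma adjusted p = 0.0244). It did not pass without positive 1 (0.146), positive 2 (0.0960) or negative 1 (0.0922), or in limma-voom (adjusted p 0.0657). Epha3, known from mesenchyme, had 129.7 and 23.3 against 579, 1765 and 439 (log2 -3.77, SE 0.89, limma adjusted p = 0.0265). Its highest value was in negative 1, which also had the highest stromal, smooth muscle and pacemaker sums. The Epha3 call was lost without positive 1 (0.0514, log2 -4.98), positive 2 (0.0806), negative 1 (0.104, log2 -3.16) or negative 2 (0.125, log2 -2.55), and in edgeR (adjusted p 0.0522) and limma-voom (adjusted p 0.108).

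Epha2, known from epithelia, had 111 and 269 against 584, 819 and 1672 (log2 -2.42, SE 0.58, limma adjusted p = 0.0287). Its call ended without positive 1 (0.185, log2 -1.78), positive 2 (0.0503), negative 1 (0.0963) or negative 3 (0.0725), and in limma-voom (adjusted p 0.0907), while the log2 difference was -3.05 without negative 2. Epha7 had 369 and 987 against 2576, 2081 and 1191, without overlap and with a limma adjusted p of 0.0638. Epha1 had 279 and 403 against 609, 599 and 329 (limma adjusted p = 0.425). Epha8 and Epha5 were the lowest Eph receptors. Epha8 had 0 reads in positive 1, where 3 reads would have given 4.23, and at most 49.0 elsewhere, and Epha5 ranged from 2.22 to 22.3.

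All 8 ephrins also had a fitted difference below 0, again against 8875 of 16579 genes. Of the 8, 3 were called higher in the second set, against 9.88% of all genes, and 0 in the first. Efna1, known from endothelium and epithelium, had the highest level per kilobase of the class, at 1140.4 and 1095 in the first set and 2320.4, 2748 and 5146 in the second. It was 2.86-fold higher in the second set (log2 -1.52, SE 0.35, limma adjusted p = 0.0249). The Efna1 call was lost without positive 1 (0.150), negative 1 (0.0729) or negative 2 (0.122). Efnb1, an X-linked ephrin with a membrane span, had 966 and 830.1 against 3437, 2418 and 8007 (log2 -2.18, SE 0.48, limma adjusted p = 0.0206). It did not pass without positive 1 (0.138), positive 2 (0.0628) or negative 2 (0.125), or in limma-voom (adjusted p 0.0524).

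Efnb3 had 32.4 and 42.2 in the first set and 326, 389 and 266 in the second, 8.54-fold higher there (log2 -3.09, SE 0.53, limma adjusted p = 0.00847), a call lost without positive 2 (0.0516) or negative 1 (0.0575). Efnb2, the ligand of Ephb4 known from arteries, did not pass (limma adjusted p = 0.196). Positive 1 had 3007, more than positive 2 (2849) and negative 1 (2859), while negative 2 had 810.2 and negative 3 had 6461.

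The remaining 4 ephrins, among them Efna5 described by label, did not pass in limma. Efna2 had 0 reads in positive 1 and 86.6 in negative 2, against 590.5, 429 and 352 (limma adjusted p = 0.0614), and an adjusted p of 4.6e-05 in the authors' deposited table. Efna4 had 335 and 231 against 864, 438 and 445 (limma adjusted p = 0.178), and Efna3 ranged from 14.4 to 91.2. Some exon bases of Efna3 and Efna4 are shared with other genes (14.1% and 10.5%), so their reads are uncertain. The same holds for Plxna1 (10.7%), Sema4c (7.27%) and Epha1 (6.01%), and no member called by limma shares over 3% of its exon bases.

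Partners of these families outside the members were followed in a list of 45 co-receptors and cytoplasmic proteins, of which 44 were in the table. Between the sets limma called 5 higher in the first set and 8 higher in the second, against 10.6% and 9.88% of all genes, and 31 did not pass. The counts were 3 and 5 without positive 2, 4 and 4 without negative 1 and 5 and 6 without negative 3. In these fits 11.5%, 10.4% and 17.0% of all genes were called in either direction, against 20.5% with all libraries. Fewer partners also passed without positive 1 or without negative 2, where 1 library is left in the first set. With all libraries, the median log2 difference of the partners, first minus second set, was -0.18 against -0.07 over all genes. Both neuropilins were among the partners that did not pass. Nrp1, the co-receptor of Sema3a, had 12798 and 18904 in the first set and 14183, 21238 and 24559 in the second, with overlap (limma adjusted p = 0.489). Nrp2 had 708 and 1143 against 1141, 1842 and 3057 (limma adjusted p = 0.150). By label 0 of the 44 passed in limma, and 1 had an unadjusted p under 0.05.

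Among the partners higher in the first set, Cd72, a receptor of Sema4d on leukocytes, had 1847 and 2434 against 29.7, 13.4 and 40.9 (log2 6.33, SE 0.63, limma adjusted p = 0.00128). Sdcbp, whose product binds the tail of B-type ephrins, had 37419 and 43913 against 12096, 15230.2 and 14741 (log2 1.54, SE 0.18, limma adjusted p = 0.00235). Vav3 and Vav2 encode exchange factors that act below Eph receptors. Vav3 had 4579.8 and 5219.5 against 1849, 1063 and 1095 (log2 1.92, SE 0.29, limma adjusted p = 0.00535), and Vav2 had 1099 and 1387 against 407, 492 and 499.5 (log2 1.41, SE 0.29, limma adjusted p = 0.0167). Among those higher in the second set, Dpysl3, of the collapsin response mediator family, had 395 and 153 against 2534, 3097 and 2218 (log2 -3.39, SE 0.42, limma adjusted p = 0.00268). Chn1, whose product acts below Epha4, had 168 and 267 against 1168, 1449 and 1255 (log2 -2.60, SE 0.33, limma adjusted p = 0.00293). The exchange factor gene Arhgef15 had 262 and 209 against 1236, 1745 and 4497 (log2 -3.18, SE 0.54, limma adjusted p = 0.00818). In the authors' deposited table the adjusted p of Arhgef15 was 0.127. The semaphorin effector gene Farp1 had 211 and 663 against 3100.0, 3037 and 1889 (log2 -2.80, SE 0.50, limma adjusted p = 0.00985). In each of these 8 partners the sets did not overlap, as in 23.5% and 26.1% of all genes, higher in the first and second set. The 8 were chosen by p in this same comparison, so the lack of overlap is no separate support.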

How the data were processed

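RNA was prepared with Qiagen, Clontech and Nextera XT kits, per the labels' protocols. The submitters' processing notes name TopHat2 2.0.11, HTSeq 0.6.1p2, DESeq 1.18.0 and mm10. As to the counting annotation, it was not given in the sources used here. A table deposited by the authors holds a signal column per library, in which read counts stand divided by a size factor. It also holds, per the file headers, their mean over all libraries, a fold ratio, its log2, a p-value and an adjusted p-value. Of the values above 0, 100% were whole reads within a tolerance of 0.01 of a read. The 3 summary rows (reads not unique, in no gene or ambiguous, 13.5% to 18.7%, 8.58% to 14.0% and 0.792% to 2.32% of reads) entered no test. The floor of 3 reads covers counting error only.

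Tests by label and between the sets used limma 3.58.1 with a trend (R 4.3.3) on log2(normalized count + 1). The 16579 genes whose mean reached 5 were tested, p-values were adjusted over all of them by Benjamini-Hochberg, and the threshold was 0.05. Folds and differences are on that scale, which understates low genes. Alternatives on the recovered reads were limma-voom, DESeq2 1.42.0 and the quasi-likelihood test of edgeR 4.0.16. Scripts were tested on simulated data. Levels per kilobase used the exon union of GENCODE M21 (mm10). By rule, values in all libraries were given for members that passed, for the 3 with the highest level per kilobase in each family, for those whose labelled groups did not overlap with a mean of at least 50, and for up to 4 partners by p in each direction and both neuropilins. Values of other members were added after they were seen. Members and lists were chosen with earlier results of these data known.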

Additional observations from a re-analysis of the deposited data

How the results depend on the processing

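By label, 0 members and 0 partners passed in limma or any of the 14 alternatives. Between the sets, 25 members passed, 7 toward the first set and 18 toward the second. With 1 library left out these counts ran from 10 to 21, from 3 to 6 and from 6 to 15. The counts of 13, 5 and 8 partners ran from 4 to 11, from 2 to 5 and from 2 to 6. These fits have fewer samples, and the share of all genes that passed also fell. It was 20.5% with all libraries and 10.4% to 17.0% where at least 2 libraries stayed in each set. With limma-voom 10 members and 5 partners were higher in the second set. Over all genes 851 were, against 1638 in limma. The cause was not tested. Over pseudocounts of 0.5 and 5, no filter, a mean of at least 20, TMM scaling, edgeR and DESeq2, 22 to 31 members passed. Of all genes, 17.0% to 27.3% passed under these settings. No member that passed changed sign under any alternative.

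Labels share sample numbers, but nothing says that these pair the samples. The deviations of same-numbered libraries correlated at -0.53 and -0.69 across genes, over only 2 such pairs. With the replicate block 25 members passed, 7 toward the first set and 18 toward the second, of which 23 were calls without it. Of all genes 17.1% passed. Only negative 3 has the number 3, so the block takes that library up. The log2 differences then equal those of the fit without negative 3, and these 2 alternatives are not separate checks. Epha2 (limma adjusted p = 0.0677) and Sema6c (0.0644) lost theirs, and the log2 differences of Plxna4os1, Sema4f, Sema3g and Ephb1 moved to 7.09, -5.45, -3.78 and -2.73. By label 0 passed with the block. In positive 1, the shallowest library, Sema4f, Sema6c, Sema7a, Efna2 and Epha8 had 0 to 2 reads, so their differences rest on few reads there. Each read stood for a normalized count of 1.41 in positive 1, against 0.742 to 1.11 in the other libraries. Sema4f also had only 2 reads in negative 2. The part of depth in these differences was not tested.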
